A study of Mus musculus with 8 samples.

Results

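Collagen IV, laminins, nidogens, perlecan and the matrix protein SPARC were followed as one group of 10 genes in mouse embryonic stem (ES) cells treated with small interfering RNAs (siRNAs) against Tet1. Tet1 encodes a dioxygenase that oxidises methylated cytosine in DNA. The 10 genes were picked by symbol for their role in the basement membrane, with earlier results of these data known. Each was read by 1 probe set of an Affymetrix array, out of 15267 genes that the array's annotation names. The cells of every group were E14Tg2a, a mouse ES cell line, and by the labels groups differ only in the transfected duplex and the time. There were 4 groups with 2 arrays each. One Tet1 duplex (siRNA 1) was read at 96 h and at 48 h, another (siRNA 2) at 96 h only, and the control, a duplex against firefly luciferase, also at 96 h only. A 48 h control was not analysed here, so a difference between the 48 h arrays and the control carries both the siRNA and the time. No label says if replicate arrays stand for separate cultures, and p-values then measure only the spread between arrays, which may be technical.

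A basement membrane is a thin sheet of matrix under epithelia. Laminins, trimers of an alpha, a beta and a gamma chain, polymerise at the cell surface and bind integrins and dystroglycan, and collagen IV, a trimer whose commonest form joins alpha 1 and alpha 2 chains, adds a covalently linked network. Nidogens and the proteoglycan perlecan bridge both networks, and SPARC binds collagen. In the early mouse embryo a laminin sheet separates the epiblast from the primitive endoderm, and parietal endoderm is known for secreting large amounts of laminin and collagen IV into Reichert's membrane. ES cells correspond to the naive epiblast.

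With both Tet1 siRNAs at 96 h the group split. Col4a1, Col4a2, Lamb1 and Sparc rose, by 1.53-fold to 1.78-fold, and Lamc1 and Nid1 fell, by 1.41-fold and 2.22-fold. Lama1, Lama5, Nid2 and Hspg2 did not pass the test. That is 6 of 10 genes, against 24.2% of all 15267 genes called in this comparison. Of all genes 12% were called higher and 12.2% lower, which also holds beside the gene lists read in this comparison below. The 10 genes and those lists were chosen with earlier results of these data known. Such shares, here and for each duplex, therefore describe the genes and are no test. In 7 of the 10 genes the 4 siRNA arrays of 96 h did not overlap with the control arrays, as in 44.3% of all genes. The median log2 difference was 0.08 over the 10 genes and -0.02 over all genes. Calls are at an adjusted p below 0.05, from limma fitted to all 8 arrays with Benjamini-Hochberg adjustment over all genes, and values after ± are standard errors of log2 differences. Signals are RMA values on a log2 scale, so that a difference of 1 is a doubling. In a bulk sample, fewer cells of a type and less RNA per cell cannot be told apart.

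**Figure D1:**
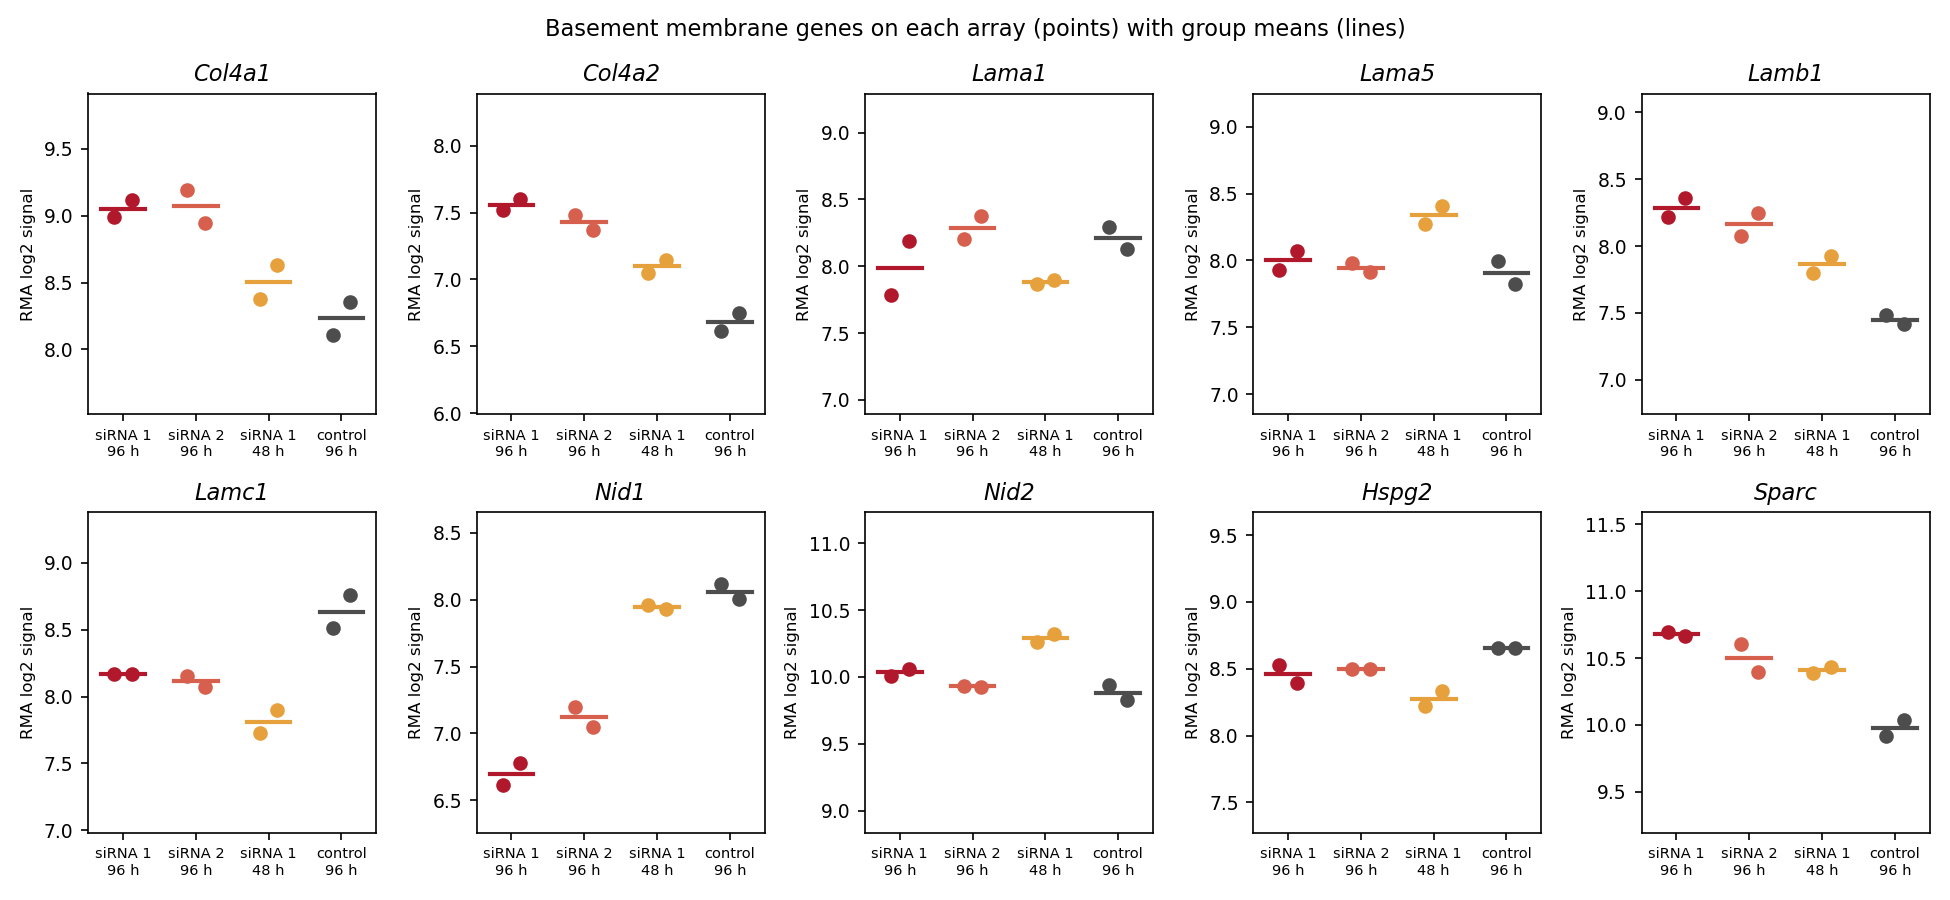
RMA log2 signal of the 10 basement membrane genes on each of the 8 arrays, with a point per array and a line at the mean of each group of 2, on axes of equal height. Col4a1, Col4a2, Lamb1 and Sparc lie higher on all 4 siRNA arrays of 96 h than on the control arrays, and Nid1 lies lower on those 4 while its 48 h arrays (7.96 and 7.93) sit just under the controls (8.118 and 8.004).

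Col4a1 and Col4a2 encode the chains of the commonest collagen IV and lie head to head on mouse chromosome 8. Their RefSeq start sites (GRCm38.p6) are 21 bases apart, with the annotated gene spans sharing 85 bases, and the sequence around these start sites is known as a promoter that serves both genes. The stretch shown, at chr8:11312781-11312810 on the strand of Col4a2, holds the letters CCCTCCCC in capitals. They were searched for the CTC box, a motif known from work on this shared promoter. Whether this match is the site of that work was not tested. The match starts 13 bases before the start site of Col4a2, outside the stretch between both start sites and within the annotated span of Col4a1.
Col4a1 and Col4a2: ttggcgctgccCCCTCCCCtcggcagtgcg
These letters, searched on both strands, are in 10.8% of the 32851 RefSeq promoter windows of 300 bases. A match therefore describes the window and shows no use of the site.

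The collagen IV pair moved together. Col4a1 signals were 8.99 and 9.11 with siRNA 1 and 9.19 and 8.95 with siRNA 2 at 96 h, and 8.38 and 8.63 with siRNA 1 at 48 h, against 8.11 and 8.36 in the control. Col4a2 signals were 7.52 and 7.60 with siRNA 1 and 7.48 and 7.37 with siRNA 2 at 96 h, and 7.04 and 7.15 at 48 h, against 6.61 and 6.75 in the control. For both genes every siRNA array of 96 h lay above both control arrays and above both 48 h arrays. Over both siRNAs at 96 h Col4a1 rose by 0.83 ± 0.11 on the log2 scale (95% confidence interval 0.57 to 1.09, adjusted p = 0.00141, limma). Col4a2 rose by 0.81 ± 0.075 (0.64 to 0.99, adjusted p = 0.000219, limma). The rise was of like size with either duplex, 0.82 and 0.84 for Col4a1 and 0.88 and 0.75 for Col4a2 with siRNA 1 and siRNA 2.

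Among the laminin chains the beta and gamma subunits went in opposite directions. Lamb1, the beta 1 chain, had signals of 8.22 and 8.36 with siRNA 1 and 8.08 and 8.25 with siRNA 2 at 96 h, and 7.80 and 7.93 at 48 h, against 7.49 and 7.41 in the control. It rose by 0.77 ± 0.081 (0.59 to 0.96, adjusted p = 0.000394, limma), and the 4 siRNA arrays of 96 h did not overlap with the other 4 arrays. Lamc1, the gamma 1 chain that most laminins contain, had 8.17 and 8.17 with siRNA 1 and 8.16 and 8.07 with siRNA 2 at 96 h, and 7.73 and 7.90 at 48 h, against 8.51 and 8.76 in the control. It fell by 0.49 ± 0.089 (interval -0.70 to -0.29, adjusted p = 0.00531, limma), with its lowest signals at 48 h.

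The Lamc1 fall over both duplexes stayed below an adjusted p of 0.05 without any single array. Taken for each duplex alone it did not. With siRNA 1 alone (-0.47 ± 0.10, adjusted p = 0.0138, limma) the adjusted p was 0.0752 without control replicate 2, 0.0589 without siRNA 1 replicate 1 and 0.0675 without siRNA 1 replicate 2. With siRNA 2 alone (-0.52 ± 0.10, adjusted p = 0.0128, limma) it was 0.0670 without control replicate 2 and 0.0741 without siRNA 2 replicate 2.

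The alpha chains, which set the receptor a laminin binds, did not pass. Lama1, the alpha chain of the first laminin of the embryo, had 7.79 and 8.19 with siRNA 1 and 8.20 and 8.38 with siRNA 2 at 96 h, and 7.87 and 7.90 at 48 h, against 8.30 and 8.13 in the control. The siRNA arrays lay on both sides of the controls, with the lowest and the highest signal of all 8 arrays among them, and the log2 difference over both duplexes was -0.07 ± 0.12 (-0.34 to 0.20). Lama5, an alpha chain that laminins of ES cells also contain, had 7.93 and 8.07 with siRNA 1 and 7.98 and 7.91 with siRNA 2 at 96 h, and 8.27 and 8.41 at 48 h, against 7.99 and 7.83 in the control. All 6 arrays of 96 h fell within one range and both 48 h arrays lay above it. The Lama5 difference at 96 h was 0.06 ± 0.081 (-0.12 to 0.25).

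The nidogens, which link laminin to collagen IV, parted as well. Nid1 had 6.61 and 6.78 with siRNA 1 and 7.20 and 7.05 with siRNA 2 at 96 h, and 7.96 and 7.93 at 48 h, against 8.118 and 8.004 in the control. Its fall of 1.15 ± 0.079 on the log2 scale (interval -1.33 to -0.97, adjusted p = 6.1e-05, limma) was the largest difference among the 10 genes at 96 h. Nid2, the other nidogen, had 10.01 and 10.06 with siRNA 1 and 9.93 and 9.93 with siRNA 2 at 96 h, and 10.26 and 10.32 at 48 h, against 9.94 and 9.83 in the control. Its difference at 96 h was 0.10 ± 0.065 (-0.05 to 0.25), and the siRNA 2 arrays overlapped with the controls.

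Promoter windows from RefSeq (GRCm38.p6) were matched for 7 of the 10 genes. The 2 stretches shown belong to Lamb1, the laminin gene that rose, and Nid1, the gene that fell furthest, and hold only bases before the annotated gene. Capitals mark the letters searched for 3 motifs on either strand, the CCAAT box, the CTC box (CCCTCCCC) and the GC box (GGGCGG). The Lamb1 stretch is chr12:31265043-31265145 on the plus strand and the Nid1 stretch chr13:13437352-13437601 on the plus strand.
Lamb1: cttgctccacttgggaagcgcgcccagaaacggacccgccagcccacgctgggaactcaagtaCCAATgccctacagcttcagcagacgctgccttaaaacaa
Nid1: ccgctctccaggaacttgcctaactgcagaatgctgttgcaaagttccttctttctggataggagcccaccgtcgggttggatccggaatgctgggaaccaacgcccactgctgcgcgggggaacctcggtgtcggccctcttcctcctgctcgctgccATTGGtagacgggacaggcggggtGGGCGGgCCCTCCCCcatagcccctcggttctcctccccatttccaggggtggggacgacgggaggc
The CCAAT box is in 37.4% of the windows of all genes, the GC box in 35.7% and the TATA box, searched as TATAAA, in 13.6%. The windows of Col4a1, Col4a2, Lamb1 and Nid1 each hold a CCAAT box and a GC box, those of Lama5 and Hspg2 a GC box but no CCAAT box, and that of Sparc holds neither. The TATA box letters are in none of the 7 windows. The CTC box letters are in the windows of Col4a1, Col4a2, Nid1 and Lama5, genes that rose, fell and did not pass.

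Perlecan and SPARC complete the group. Hspg2, the gene of perlecan, had 8.53 and 8.40 with siRNA 1 and 8.50 and 8.50 with siRNA 2 at 96 h, and 8.22 and 8.33 at 48 h, against 8.66 and 8.66 in the control. All siRNA arrays were below the controls by a small margin, and the log2 difference of -0.18 ± 0.069 (-0.34 to -0.02) did not pass (adjusted p = 0.105, limma). Sparc, a collagen-binding glycoprotein of remodelled matrix, had 10.70 and 10.67 with siRNA 1 and 10.60 and 10.40 with siRNA 2 at 96 h, and 10.39 and 10.44 at 48 h, against 9.92 and 10.03 in the control. It rose by 0.62 ± 0.078 (0.44 to 0.80, adjusted p = 0.00102, limma), with all 6 Tet1 siRNA arrays above both controls.

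**Figure D2:**
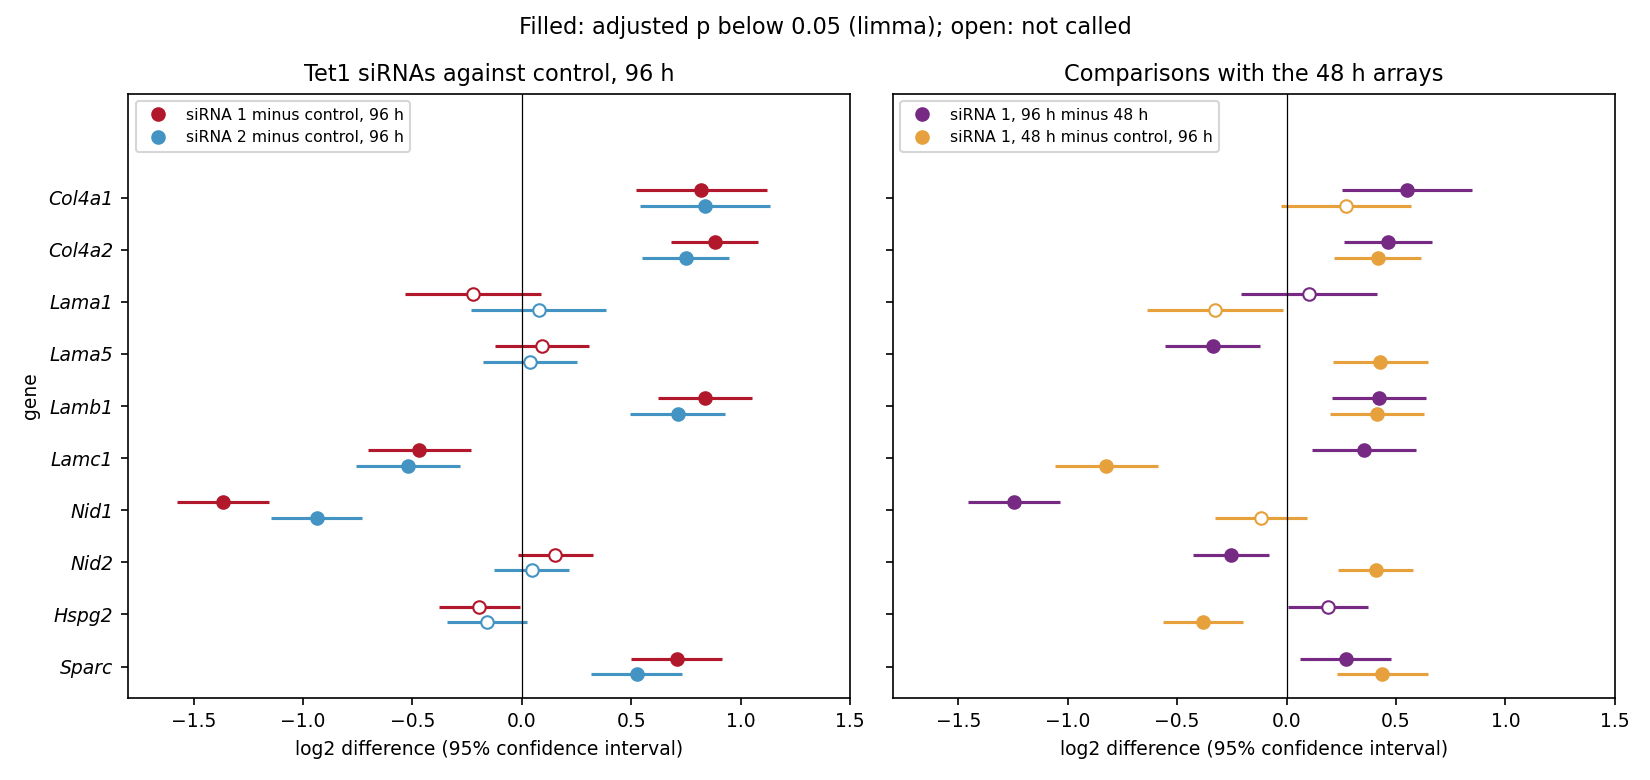
Log2 differences of the 10 genes with 95% confidence intervals from limma, on the left for siRNA 1 and siRNA 2 against the control at 96 h, on the right for siRNA 1 at 96 h against 48 h and at 48 h against the control of 96 h. Filled points have an adjusted p below 0.05. The duplexes run side by side on the left except at Nid1, at -1.36 and -0.94, and Lama1, at -0.22 and 0.08.

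Each duplex alone gave the same calls at 96 h. With siRNA 1 the genes called were Col4a1, Col4a2, Lamb1 and Sparc, higher, and Lamc1 and Nid1, lower. The background was 22.8% of all genes called, 11.6% higher and 11.2% lower. With siRNA 2 the same 6 genes were called in the same directions, against a background of 15.7%, 8.01% higher and 7.66% lower. The siRNA and control arrays did not overlap in 8 of the 10 genes with siRNA 1 and in 7 with siRNA 2, as in 62.6% and 57.4% of all genes. Both comparisons use the same control arrays. Set against each other, the duplexes showed no called member (0 of 10 by limma, 1 at an unadjusted p below 0.05), where 0.0197% of all genes were called, all of these lower with siRNA 1. Their arrays did not overlap in 6 of the 10 genes, as in 41.1% of all genes. The member at an unadjusted p below 0.05 was Nid1, the difference of which was -0.43 ± 0.091 (-0.64 to -0.22, adjusted p = 0.164, limma). The intervals of the siRNA 1 minus siRNA 2 difference were -0.31 to 0.28 for Col4a1, -0.07 to 0.33 for Col4a2 and -0.09 to 0.34 for Lamb1. For Sparc the interval was -0.02 to 0.39 and for Lamc1 -0.18 to 0.29. These widths do not show that the duplexes act alike.

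Over the 8 arrays Col4a2, Lamb1 and Sparc followed Col4a1 with Pearson's r of 0.963, 0.899 and 0.883, and Nid1 ran against it with r of -0.888. The other 5 genes had r between -0.30 and 0.04. These coefficients describe 4 pairs of arrays and are not tests. Among 2367 genes with an SD of at least 0.3 over the arrays, those most like the mean of Col4a1 and Col4a2 were Crym (0.983), Lpar6 (0.977), Cpne8 (0.976), Phldb2 (0.974), Id1 (0.973) and Lratd2 (0.972). In log2 differences at 96 h, Lpar6, a receptor for lysophosphatidic acid, rose by 1.57 ± 0.082 and Id1, an inhibitor of differentiation, by 0.80 ± 0.063. As both were picked for following the collagen IV pair over the same arrays, their rise comes with that choice and is no separate result.

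Between 48 h and 96 h of siRNA 1, 5 of the 10 genes were higher at 96 h, 3 were lower and 2 did not pass, against a background of 37.6% of genes called, 19.2% higher and 18.5% lower. The arrays of 96 h and 48 h did not overlap in 9 of the 10 genes, as in 70.3% of all genes. Nid1 was lower at 96 h by 1.25 ± 0.091 on the log2 scale (adjusted p = 5.6e-05, limma), whereas at 48 h it differed from the control by -0.12 ± 0.091, which did not pass (adjusted p = 0.352). Col4a2 was higher at 96 h by 0.46 ± 0.087 (adjusted p = 0.00407, limma) and already higher at 48 h than in the control by 0.42 ± 0.087 (adjusted p = 0.00727). Its order was thus siRNA 1 at 96 h, then 48 h, then the control, with each neighbour called. Col4a1 was higher at 96 h than at 48 h by 0.55 ± 0.13 and at 48 h differed from the control by 0.27 ± 0.13, which did not pass (adjusted p = 0.141, limma). Lamb1 was higher by 0.42 ± 0.094 at 96 h and, at 48 h, by 0.41 ± 0.094 over the control.

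Other members had their extreme at 48 h. Lamc1 at 48 h was 0.82 ± 0.10 below the control (log2 difference -0.82, adjusted p = 0.000777, limma), and it was higher at 96 h than at 48 h by 0.35 ± 0.10. Lama5 and Nid2 were higher at 48 h than in the control, by 0.43 ± 0.094 and 0.41 ± 0.075, and lower at 96 h than at 48 h (-0.34 ± 0.094 and -0.25 ± 0.075). Hspg2 was lower at 48 h than in the control (-0.38 ± 0.080, adjusted p = 0.00741, limma). Sparc was higher at 48 h than in the control by 0.44 ± 0.090 and at 96 h than at 48 h by 0.27 ± 0.090. In all, 5 members were higher and 2 lower at 48 h than in the control, against 35.4% of all genes called, 17.1% higher and 18.4% lower. The 48 h and control arrays did not overlap in any of the 10 genes, as in 68.9% of all genes. The siRNA and the time cannot be told apart in these values.

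The calls between 96 h and 48 h rest on 2 arrays a side, and of the 8 only those of Nid1 and Col4a2 were kept when any single array was left out. For 96 h against 48 h, Col4a1 and Lamb1 had adjusted p-values (limma) of 0.0690 and 0.0601 without siRNA 1 replicate 2 of 96 h and of 0.0787 and 0.0577 without replicate 1 of 48 h. Lama5 had 0.124 without replicate 1 of 96 h and 0.133 without replicate 2 of 48 h. Lamc1 had 0.0914 and 0.0948 without replicate 1 or 2 of 96 h and 0.146 without replicate 1 of 48 h. For Nid2 the values were 0.121 and 0.0736 without replicate 1 or 2 of 96 h, and 0.0609 and 0.130 without replicate 1 or 2 of 48 h. Sparc lost its call without any of these (0.151, 0.119, 0.157 and 0.117) and without either control array (0.0522 each). The count of 8 called members was 4 or 3 without replicate 1 or 2 of 96 h and 3 or 5 without replicate 1 or 2 of 48 h.

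For 48 h against the control, Col4a2, Lama5 and Lamb1 had adjusted p-values (limma) of 0.0541, 0.0669 and 0.0742 without replicate 2 of 48 h, where 4 members were called. Lama5 and Lamb1 had 0.0567 and 0.0552 without control replicate 2. Lama1, lower at 48 h by 0.33 ± 0.14, was not called (adjusted p = 0.0943), and had an adjusted p of 0.0371 without either siRNA 1 array of 96 h. These comparisons with 48 h also differ in what the arrays hold. Scgb1a1, a secreted protein gene of the airway epithelium, had signals of 11.95 to 12.83 on the 6 arrays of 96 h, against 3.71 and 4.03 at 48 h, and Sftpc, surfactant protein C, had 9.95 to 10.70 against 5.40 and 5.39.

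Of 19 measured lung epithelium markers, 12 were higher and 1 lower at 96 h than at 48 h with siRNA 1, against 19.2% and 18.5% of all genes. Their mean signal was 6.97 to 7.15 with siRNA 1 and 6.78 to 7.28 with siRNA 2 at 96 h and 5.205 to 5.221 at 48 h, against 7.18 to 7.20 in the control. Spiked-in transcripts moved too: the mean of bioB, bioC, bioD and cre was 11.64 to 12.02 at 96 h, against 11.02 and 10.97 at 48 h, and the mean of dap, lys, phe and thr was 7.51 to 7.89 at 96 h, against 8.65 and 8.68 at 48 h. With the lung marker mean as a covariate, 0 of 10 members were called by limma in either comparison with 48 h (2 for 96 h against 48 h and 1 for 48 h against the control at an unadjusted p below 0.05). This covariate goes almost wholly with the time, so the fit cannot tell them apart. The standard error of Col4a1 for 96 h against 48 h grew from 0.13 to 0.63. The part of lung RNA and of array handling in the 48 h differences was not tested, since both go with the time.

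**Figure D3:**
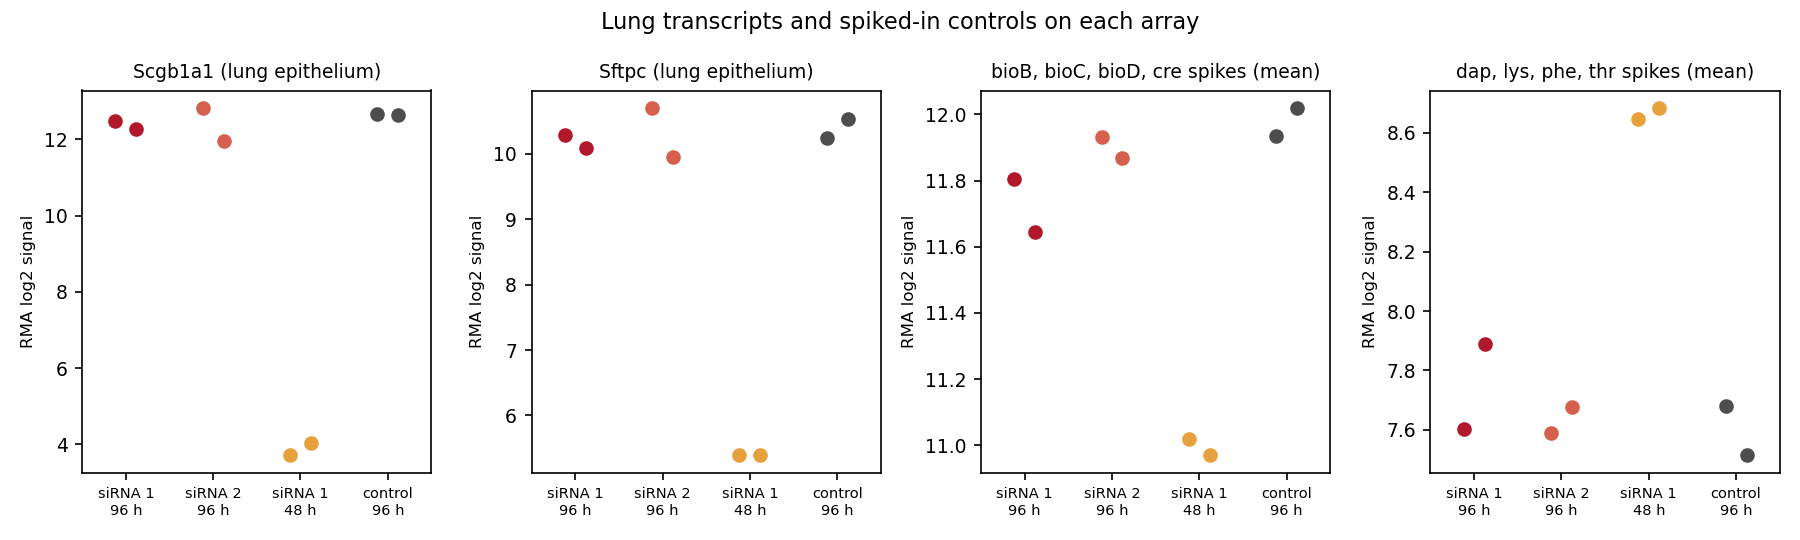
RMA log2 signal on each of the 8 arrays for Scgb1a1 and Sftpc, markers of lung epithelium, and the mean signals of 2 sets of spiked-in control transcripts. The 48 h arrays stand apart in all 4 panels, with Scgb1a1 at 3.71 and 4.03, against 11.95 or more on every array of 96 h.

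At 96 h the lung mean overlapped with the control (7.18 to 7.20) for siRNA 2 only (6.78 to 7.28). Both siRNA 1 arrays (6.97 to 7.15) lay below the controls. With the lung mean as a covariate the 6 calls at 96 h were kept. The log2 differences were 0.88 for Col4a1, 0.84 for Col4a2, 0.72 for Lamb1, 0.67 for Sparc, -0.47 for Lamc1 and -1.13 for Nid1. This fit takes the lung slope from differences between arrays of one group, which were widest for siRNA 2 (6.78 to 7.28). It therefore cannot settle the part of lung RNA in the 96 h differences, which was not tested. Of the lung markers 2 of 19 were called at 96 h, both lower with the siRNAs: Napsa (-1.34 ± 0.11) and Bpifa1 (-0.88 ± 0.20, adjusted p of 0.0698 and 0.0687 without control replicate 1 or 2). That count was 1 without control replicate 2, 4 without siRNA 1 replicate 2 and 5 without siRNA 2 replicate 1. Scgb1a1 differed by -0.27 ± 0.21 and was called without siRNA 2 replicate 1 (-0.49, adjusted p = 0.0236, limma).

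Markers of other cells that make basement membrane, and of blood, were read beside the group. At 96 h 12% of all genes were called higher and 12.2% lower. Of 14 fibroblast markers 2 were higher and 1 lower at 96 h, among them Tagln, the gene of transgelin, a protein of smooth muscle, which rose by 1.61 ± 0.078. Mean signals of that list were 5.47 to 5.57 with siRNA 1 and 5.40 to 5.58 with siRNA 2, against 5.40 to 5.48 in the control. Of 14 endothelial markers 1 was higher, Tek (0.64 ± 0.12, and 0.41 without control replicate 1), and 1 lower, Vwf (-0.87 ± 0.21, and -0.55 with an adjusted p of 0.134 without control replicate 2). The Vwf call was also lost without siRNA 2 replicate 2 (adjusted p = 0.0520, limma) and with the lung covariate (0.0578). Of 8 blood markers 2 were lower, Laptm5 (-0.59 ± 0.066) and Cd74 (-0.57 ± 0.097), and without control replicate 1 the count was 4. Their part in the changes of the 10 genes was not tested.

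ES cell markers averaged 11.94 to 12.01 with siRNA 1 and 12.05 to 12.09 with siRNA 2 at 96 h and 12.33 to 12.34 at 48 h, against 12.19 and 12.20 in the control, so the siRNA arrays of 96 h lay below the controls and the 48 h arrays above them. Of the 12 markers 2 rose and 4 fell at 96 h, against 12% and 12.2% of all genes, while 6 were not called. Without control replicate 1 or 2 the calls were 1 higher and 3 lower. Nanog, Esrrb and Zfp42, genes of transcription factors of the naive state, fell by 1.08 ± 0.083, 1.11 ± 0.068 and 0.49 ± 0.084, and Utf1, a chromatin-associated factor of pluripotent cells, rose by 0.58 ± 0.079. Pou5f1, the gene of Oct4, differed by -0.15 ± 0.074 and did not pass. Tet2 fell by 0.69 ± 0.078 and Tet3 differed by -0.14 ± 0.096 (adjusted p = 0.327, limma). Tet1 itself, the target of the siRNAs, has no named probe set in the annotation used, and its level was not analysed here.

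Extraembryonic endoderm, the embryonic tissue best known for these matrix genes, was followed through markers outside the 10. Of 23 measured markers 9 rose and 1 fell, against 12% and 12.2% of all genes, while the test called neither direction for 13. The median log2 difference was 0.17. This list too was chosen with earlier results of these data known. The endocytic receptor genes Lrp2 and Cubn, and Amn, which encodes the partner of the Cubn product, rose by 1.14 ± 0.12, 1.13 ± 0.14 and 1.22 ± 0.16. Apoe, an apolipoprotein gene, fell by 1.197 ± 0.091. Among the lineage's transcription factors Sox17 rose by 0.58 ± 0.11 (adjusted p = 0.0056, limma), while Gata6 (0.17 ± 0.096) and Gata4 (-0.02 ± 0.10) did not pass. Gata4 signals were 5.24 to 5.56 on the siRNA arrays of 96 h, against 5.36 and 5.38 in the control. The mean over the list was 5.96 to 6.02 with siRNA 1 and 6.001 to 6.127 with siRNA 2 at 96 h and 5.67 to 5.71 at 48 h, against 5.68 to 5.77 in the control.

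**Figure D4:**
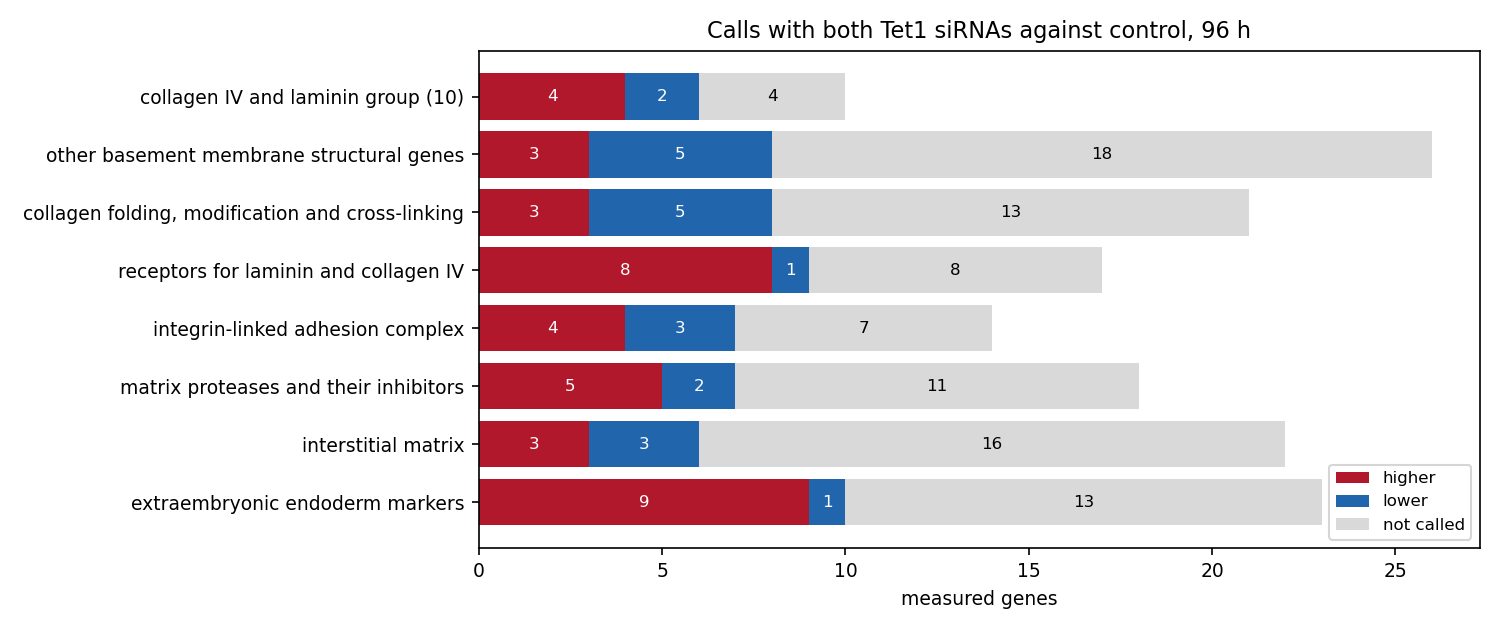
Number of measured genes called higher (red), called lower (blue) or not called (grey) with both Tet1 siRNAs against the control at 96 h, for the 10 genes and 7 lists around them. The receptor list had 8 genes called higher and 1 lower of 17, and endoderm markers 9 higher and 1 lower of 23. Each of the other lists had at least 2 calls in either direction. Of all genes 12% were called higher and 12.2% lower.

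Other structural genes of basement membranes were mixed: of 26, 3 rose, 5 fell and 18 were not called (median -0.05). Of all genes 12% rose and 12.2% fell. Efemp1, which encodes an extracellular glycoprotein of the fibulin family, rose by 0.77 ± 0.079. Ntn1, the gene of the laminin-related guidance cue netrin 1, fell by 0.68 ± 0.071 and Papln by 0.67 ± 0.061. Fras1, which the skin's basement membrane needs, rose by 0.41 ± 0.11, but its adjusted p was 0.163 without control replicate 1, 0.0532 without siRNA 1 replicate 1 and 0.0608 without siRNA 2 replicate 1. The 8 calls of this list became 4 without control replicate 1 or siRNA 1 replicate 1 and 5 without siRNA 2 replicate 2.

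Genes that fold, modify and cross-link collagen were mixed too (3 rose, 5 fell, 13 of 21 did not pass, median -0.07), against 12% of all genes higher and 12.2% lower. Serpinh1, the collagen-specific chaperone of the endoplasmic reticulum, rose by 0.63 ± 0.090. Plod1, a lysyl hydroxylase, and P3h1, a prolyl hydroxylase, fell by 0.60 ± 0.085 and 0.46 ± 0.063. Kdelr3, a retrieval receptor for proteins of the endoplasmic reticulum, fell by 0.71 ± 0.13, and its log2 difference was -0.46 without control replicate 2. Without control replicate 1 the list held 5 calls.

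Of 17 genes of receptors for laminin and collagen IV or of their complexes, 8 rose, 1 fell and 8 were not called. Of all genes 12% were called higher and 12.2% lower. The median log2 difference was 0.31, against -0.02 over all genes. The list was chosen with earlier results of these data known. Itgb1, the beta subunit that the main laminin and collagen integrins share, had 10.48 and 10.60 with siRNA 1 and 10.19 and 10.34 with siRNA 2 at 96 h, and 9.94 and 9.81 at 48 h, against 9.70 and 9.64 in the control. All 4 siRNA arrays of 96 h were above the rest, and Itgb1 rose by 0.73 ± 0.077 (adjusted p = 0.000394, limma). Sgce, a sarcoglycan of the dystroglycan complex and an imprinted gene, rose by 0.87 ± 0.096. The syndecan genes Sdc4 and Sdc2, membrane proteoglycans, rose by 0.81 ± 0.068 and 0.66 ± 0.088.

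Inside the cell, 4 of 14 genes of the integrin-linked adhesion complex rose, 3 fell and 7 did not pass (median -0.13). The shares over all genes were 12% higher and 12.2% lower. The parvins, adaptors of integrin-linked kinase, moved oppositely: Parva rose by 0.86 ± 0.087 and Parvb fell by 1.05 ± 0.077. Zyx, of focal adhesions and stress fibres, rose by 0.83 ± 0.095 and Vcl, the gene of vinculin, by 0.59 ± 0.068.

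Of 18 matrix proteases and inhibitors 5 rose, 2 fell and 11 did not pass (median 0.03), or 3 and 1 without control replicate 1. Adamts1, a secreted protease of proteoglycans, rose by 1.27 ± 0.071, Mmp2, a gelatinase that also cleaves collagen IV, by 0.84 ± 0.089 and the serine protease gene Htra1 by 0.80 ± 0.076. Timp1, an inhibitor of metalloproteases, fell by 0.57 ± 0.059. Interstitial matrix, the loose matrix of connective tissue, had 3 rises, 3 falls and 16 of 22 that did not pass (median -0.05). Beside the protease and interstitial lists, 12% of all genes were called higher and 12.2% lower. Thbs1, the gene of thrombospondin 1, rose by 1.70 ± 0.12, Vcan by 0.56 ± 0.082 and Col5a1 by 0.56 ± 0.067. Dcn, of connective tissue and also in the fibroblast list, had a log2 difference of -0.44 ± 0.13 (adjusted p = 0.0422, limma), which became 0.0529 to 0.217 when any 1 array other than siRNA 2 replicate 1 was left out. Its call was lost too with the lung covariate (0.0643), a replicate block (0.0597) and only the compared arrays (0.0559).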

How the data were processed

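The authors deposited 1 RMA log2 value per probe set and array, per the submitters' processing notes, which name RMA and no version. Values of 2.60 to 15.3 and array medians of 6.68 to 6.72 fit a log2 scale. RMA gives the probe intensities of all arrays one distribution before they are summarised, which hides a change in the total RNA of a cell. Of 16556 probe sets, 64 controls and 1222 that the annotation does not list were left out of gene tests, and the brightest probe set was used for 3 genes with several, which left 15267 genes. Array number limits the precision. Arrays of one group correlated with r of 0.997 to 0.998.

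A group-means model over all 8 arrays was fitted with limma 3.58.1 in R 4.3.3 (4 residual and 4.13 prior degrees of freedom), two-sided, with Benjamini-Hochberg adjustment over all genes in each of 6 comparisons. The script was tested on simulated data. Other settings were an intensity trend, robust fits, quantile normalization, a filter on dim genes, fewer arrays, a lung covariate, a replicate block and averaged probe sets. The 10 members and the lists were chosen with earlier results of these data known. Genes named outside the 10 were, per list, up to 4 called at 96 h with the largest difference, a short fixed panel, and those most like collagen IV. Promoter sequences are from RefSeq.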

Additional observations from a re-analysis of the deposited data

How the results depend on the processing

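With both siRNAs against the control at 96 h, 6 members were called under every setting, or 7 with dim genes left out, where Hspg2 passed (adjusted p = 0.0385). Over 6 comparisons and 16 settings, 890 of 960 values of members kept direction and side of the threshold, 44 lost and 9 gained a call, and 17 changed sign, none of them called after the change. Members called without single arrays numbered 6 to 6 for both siRNAs, 5 to 6 for siRNA 1 and for siRNA 2 against the control, 0 to 0 between duplexes, 3 to 8 for 96 h against 48 h and 4 to 8 for 48 h against the control. All genes called numbered 2218 to 3328, 1906 to 3348, 1160 to 2043, 0 to 3, 3664 to 5676 and 3212 to 5344 in that order, against 3700, 3487, 2392, 3, 5748 and 5410 with all arrays. The lung covariate left 0 members and 0 genes called in both 48 h comparisons (limma, with 1865 and 1455 genes at an unadjusted p below 0.05). It goes almost wholly with the time there, so that fit cannot tell lung RNA from time. Between duplexes the genes called were 124 with a trend, 172 without dim genes, when 1 member, Nid1, passed (adjusted p = 0.0239), and 0 (1471 unadjusted) with only the compared arrays, a fit that gave 1364 genes for siRNA 2 against the control. Replicate differences correlated weakly between groups (r of -0.056 to 0.14, the highest between siRNA 1 and siRNA 2 at 96 h). These values cannot show if the replicate numbers pair the arrays. With a replicate block 6 members were called for both siRNAs, and Sparc lost its call for 96 h against 48 h (0.27, adjusted p = 0.0649), as it did, with Lamc1, under quantile normalization (adjusted p = 0.162 and 0.0627). Where leaving out single arrays changed a sign, the log2 differences ran, for both siRNAs, from -0.18 to 0.028 in Lama1 (above 0 without control replicate 1, 0.010, or siRNA 1 replicate 1), -0.019 to 0.15 in Lama5, -0.098 to 0.064 in Gata4 (0.0056 without siRNA 1 replicate 2) and -0.32 to 0.056 in Sftpc (0.013 without control replicate 2). For siRNA 2 alone they ran from -0.011 to 0.16 in Lama1 (-0.0074 without control replicate 2), -0.046 to 0.12 in Lama5 and -0.0082 to 0.0998 in Nid2. Between duplexes they ran from -0.14 to 0.11 in Col4a1 (0.045 without siRNA 1 replicate 1), -0.10 to 0.032 in Hspg2 and -0.016 to 0.12 in Lama5, and for 96 h against 48 h from -0.098 to 0.31 in Lama1. The lung covariate turned Gata4 (0.071) and Sftpc (0.077) for both siRNAs, Lama1 (-0.012) for siRNA 2, Col4a1 (-0.16) and Sparc (-0.45) for 96 h against 48 h, and Lamb1 (-0.34) and Nid1 (0.18) for 48 h against the control. The cause was not tested. Averaged probe sets, a trend, a robust fit or leaving out an array of a group not compared cannot change a member's log2 difference. The 960 values above are therefore not separate checks. With dim genes left out, these lists were counted only over their genes that stayed. Of those, 4 endoderm markers, 4 other structural genes and 3 interstitial genes were called.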

Other observations

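Several matrix genes outside the 10 had their lowest or highest signals at 48 h, given here as signals without their test results. They were picked from the genes named above. Of all genes, 68.9% had no overlap between the 48 h and control arrays, and 70.3% none between 48 h and siRNA 1 at 96 h. Efemp1 signals were 5.39 and 5.37 with siRNA 1 and 5.41 and 5.18 with siRNA 2 at 96 h, and 3.47 and 3.54 at 48 h, against 4.59 and 4.55 in the control. The 48 h arrays lay below the control and the siRNA arrays of 96 h above it. Kdelr3 went the other way, with 6.57 and 6.76 with siRNA 1 and 6.63 and 6.65 with siRNA 2 at 96 h, and 8.39 and 8.39 at 48 h, against 7.11 and 7.62 in the control. Thbs1 had 7.18 and 7.29 with siRNA 1 and 6.62 and 6.68 with siRNA 2 at 96 h, and 5.01 and 4.63 at 48 h, against 5.40 and 5.08 in the control. Serpinh1, in contrast, was already at 7.45 and 7.48 at 48 h, with 7.28 and 7.39 with siRNA 1 and 7.35 and 7.05 with siRNA 2 at 96 h, against 6.63 and 6.64 in the control. Time, lung transcripts and spiked-in controls go together on the 48 h arrays, and their part in these values was not tested.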
